A study of Mus musculus with 4 samples.

Results

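Of 29590 loop-like pairs of 8 kb bins on the autosomes of mouse embryonic stem cells (ESCs), 9143 (30.9%) had a loop-like partner in the motor neurons (MNs) derived from them, and these merged into 2263 shared loop-like pairs. Contacts were measured by Micro-C, which digests fixed chromatin with micrococcal nuclease, joins ends that lie close together in the nucleus and counts the joined fragments by sequencing. N is the sum of the WT and PATZ1 KO contacts of a pair of bins, and the ring is the mean N of the 96 pairs that lay 3 to 5 bins away in the same contact map. A pair 13 to 250 bins apart (104 to 2000 kb) was called loop-like when N was at least 20 and at least 2 times the ring. A pair of the ESC list was kept when a loop-like pair of the MN list lay within 1 bin at both ends, and neighbours within 2 bins were merged into the pair with the highest ESC count. The shared pairs were therefore selected on measured contacts in all 4 libraries, and their N and their enrichment over the ring are given as descriptions only. The difference between PATZ1 KO and WT did not enter the selection, which used their sum.

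The 4 groups were WT ESCs, PATZ1 KO ESCs, WT MNs and PATZ1 KO MNs, each with 1 Micro-C library. All cells were of the E14 line, a mouse ESC line grown in LIF and in 2i, the inhibitors PD0325901 of MEK and CHIR99021 of GSK3. MNs of cervical identity were made through embryoid bodies patterned with 1 µM all-trans retinoic acid and 0.5 µM smoothened agonist (SAG), and the PATZ1 KO lines were single clones made with CRISPR/Cas9. No sorting of the MN cultures is described, and a pair that touches in fewer cells cannot be told apart from one that touches more rarely in every cell, and contact counts carry no marker with which the labelled cell type could be checked. With 1 library per group no difference has a replicate check and no p-value is given. The 95% intervals of changes are exact binomial (Clopper-Pearson) ones that cover counting error alone, with the rings taken as fixed.

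Contacts over the listed pairs summed to 110991835 to 170946673 per library. Library columns are numbered 1 and 2 in the deposited lists, and number 1 was read as WT and number 2 as PATZ1 KO, as the name of the comparison orders them. Under this reading the first bin of Patz1 (chr11:3288001-3296000, mm10) had fewer contacts with other bins of its chromosome in the libraries read as PATZ1 KO, with 391 against 555 in ESCs and 226 against 378 in MNs. No shared pair had an anchor at Patz1.

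Loops of chromatin form when the ring-shaped cohesin complex extrudes DNA until it meets a barrier, and the best known barrier in vertebrates is the zinc finger protein CTCF. CTCF stops cohesin mainly when its asymmetric motif points into the loop, so that the motif of the left anchor lies on the forward strand and that of the right anchor on the reverse strand. PATZ1 is a zinc finger protein with a BTB domain that binds G-rich DNA, and it was studied here as an insulation factor. In stem cells and neurons, loops and other preferred contacts bring promoters together with enhancers or hold whole gene clusters apart.

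The CTCF core consensus, a word of 12 bases, was searched on both strands of the mm10 reference. Sites are shown of the 5 shared pairs with the highest total N among those with exactly 1 match in each bin, forward in the left and reverse in the right, and with under 1% of sequence words in common, because this orientation recurred at shared anchors. The capitals mark the 12 bases of the match, with 14 bases of flank on each side, and each site is written in the direction of its motif, so that the right anchors are read from the minus strand. All 5 pairs lie on chromosomes 6 and 8, which held more contacts per bin than the other autosomes.
chr6:50679330-50679369, plus strand, left anchor: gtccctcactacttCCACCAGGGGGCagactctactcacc
chr6:50806725-50806764, minus strand, right anchor: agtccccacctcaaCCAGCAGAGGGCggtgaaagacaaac
chr6:103306871-103306910, plus strand, left anchor: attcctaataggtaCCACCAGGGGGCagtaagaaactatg
chr6:103683036-103683075, minus strand, right anchor: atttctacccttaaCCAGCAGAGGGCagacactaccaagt
chr8:45052382-45052421, plus strand, left anchor: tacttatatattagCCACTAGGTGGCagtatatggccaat
chr8:45236765-45236804, minus strand, right anchor: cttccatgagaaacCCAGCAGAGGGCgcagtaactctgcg
chr8:114074271-114074310, plus strand, left anchor: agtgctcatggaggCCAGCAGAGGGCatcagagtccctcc
chr8:114369754-114369793, minus strand, right anchor: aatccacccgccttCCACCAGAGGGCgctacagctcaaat
chr6:133960866-133960905, plus strand, left anchor: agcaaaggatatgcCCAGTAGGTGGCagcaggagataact
chr6:134389657-134389696, minus strand, right anchor: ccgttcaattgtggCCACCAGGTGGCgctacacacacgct
The right site of the second pair lies within Chl1, which encodes a neural cell adhesion molecule of the L1 family, and the right site of the fourth pair lies within Vat1l. The other 8 sites lie outside protein-coding genes. The left bin of the third pair overlaps Fat1, which encodes a large cadherin.

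These 5 pairs were 128 to 424 kb long and were counted in every library. The pair at 50.7 Mb of chromosome 6 (bins 50672001 and 50800001, given by their first bases) had 34 (WT) and 41 (PATZ1 KO) contacts in ESCs, and 45 and 29 in MNs, which is 3.90, 4.69, 5.36 and 4.13 times the ring of each library. The Chl1 pair (bins 103304001 and 103680001) had 38 and 37 contacts in ESCs and 29 and 38 in MNs, or 4.48, 4.48, 4.96 and 5.48 times the ring. For both of these pairs the counting interval of PATZ1 KO over WT held 0 in ESCs and in MNs. The Fat1 pair (bins 45048001 and 45232001) had 54 (WT) and 38 (PATZ1 KO) contacts in ESCs, and 21 in each MN library. The Vat1l pair (bins 114072001 and 114368001) had 40 and 23 contacts in ESCs and 31 and 35 in MNs, and the fifth pair (bins 133960001 and 134384001) had 37 and 19 in ESCs and 31 and 35 in MNs. At Vat1l, the log2 change from WT to PATZ1 KO, each over its ring, reached -0.84 in ESCs (-1.64 to -0.063) and 0.41 in MNs (-0.33 to 1.16). At the fifth pair it was -0.91 (-1.79 to -0.074) and 0.37 (-0.37 to 1.12). Both of these pairs had fewer contacts in PATZ1 KO than in WT ESCs, and both MN intervals held 0. Over all shared pairs the interval of the single pair lay away from 0 for 76 in ESCs (3.36%), of which 48 were below and 28 above, and for 102 in MNs (4.51%), of which 28 were below and 74 above. The background over all pairs with N of at least 20 was 3.51% in ESCs (1.79% below and 1.72% above 0) and 4.07% in MNs (1.54% below and 2.52% above), so that the shares of shared pairs with such an interval were close to those of all pairs. Here and below, all pairs include the shared pairs.

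A typical shared pair was a short contact of few counts. The median distance between anchors was 200 kb, with quartiles of 144 and 320 kb. A distance of 104 to 152 kb was found for 723 pairs, 160 to 248 kb for 714, 256 to 496 kb for 638 and 504 to 2000 kb for 188 (8.31%). The median N was 30 in ESCs (20 to 235) and 25 in MNs (20 to 135). The median enrichment of N over the ring was 3.17 in ESCs and 3.63 in MNs. In 941 of the 2263 pairs the pair of bins was the same in both cell states, and in the others the MN pair lay 1 bin away at one end or at both. A shared pair stood for a median of 3 neighbouring loop-like pairs and for at most 25, and 622 were single pixels.

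The rule had selected pairs whose summed WT and PATZ1 KO contacts rose above their surroundings, so the values of each library are descriptions of selected pairs. The median count was 16 (4 to 125) for WT and 14 (4 to 110) for PATZ1 KO ESCs, and 13 for both WT (3 to 81) and PATZ1 KO MNs (3 to 80). Over the ring of the same library the median was 3.20 and 3.18 for WT and PATZ1 KO ESCs, and 3.46 and 3.79 for WT and PATZ1 KO MNs. A count of at least 2 times the ring was reached by 92.0% and 89.5% of the pairs in the ESC libraries, WT first, and by 94.1% and 94.5% in the MN libraries. In the mean map around the shared pairs the centre stood 3.42, 3.38, 3.61 and 3.99 times over the mean ring in the same order. Set against the corner that faces the diagonal, where contacts are more frequent, the ratios were 2.64, 2.60, 2.66 and 3.01.

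**Figure D1:**
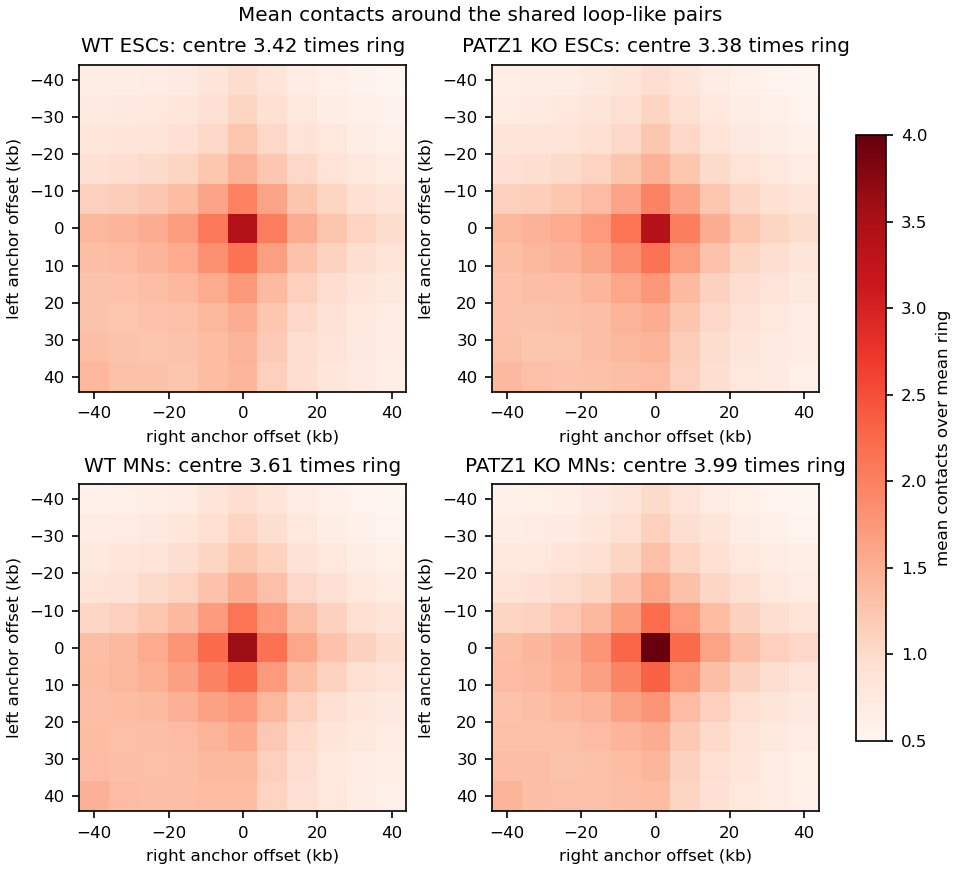
Mean contacts around the 2263 shared loop-like pairs in each library, divided by the mean of the ring, with the offset of the left anchor (kb) on the vertical axis and that of the right anchor on the horizontal axis. The centre bin is the darkest in all 4 maps, at 3.42 and 3.38 times the ring in WT and PATZ1 KO ESCs and at 3.61 and 3.99 times in WT and PATZ1 KO MNs, and the lower left corner faces the diagonal. The pairs were selected on the contacts of these same libraries.

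Because the pairs were chosen by thresholds, many lie near them. ESC N was 20 or 21 for 227 shared pairs, and MN N for 500 (22.1%). Just outside the count minimum, 14505 pairs of the ESC list and 5897 of the MN list had an N of 18 or 19 at 2 times the ring or more, against 9017 and 3594 loop-like pairs with an N of 20 or 21. The enrichment was under 2.1 for 112 shared pairs in ESCs and for 32 in MNs. Pairs just below the ring threshold, at 1.9 to 2 times, numbered 4937 in ESCs and 659 in MNs.

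Loop-like loci without a partner had lower counts, and nearly all those of ESCs fell under the count minimum in MNs. There were 11360 merged loci of the ESC list without an MN partner, with a median ESC N of 22 against 30 for the shared pairs. At the same pairs of bins the MN libraries held a median N of 7. MN N was under 20 at 99.8% of these loci, and at 2503 of them (22.0%) it was under 20 but at least 2 times its ring. The 1935 MN loci without an ESC partner had a median MN N of 22, against 25 for the shared pairs, and a median ESC N of 12. The count minimum was the same in both cell states, although the MN libraries held fewer contacts.

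CTCF core matches that pointed into the loop were found at many shared anchors, and the selection had used no sequence. A forward match lay in the left bin of 503 shared pairs (22.2%), against 1.95% of all 299619 autosomal bins, and a reverse match in the left bin of 69 (3.05%), against 2.02% of all bins. Right bins mirrored this, with a reverse match in 513 (22.7%) and a forward match in 83 (3.67%). Loci of the ESC list without a partner held the inward match at 8.21% of left bins and 7.84% of right bins. MN loci without a partner lay between, at 16.0% and 16.5%. Loci without a partner were also less enriched over their rings, with a median of 2.41 in ESCs against 3.17 for the shared pairs, and of 3.06 in MNs against 3.63. The part of enrichment in these shares was not tested. These shares are descriptions without a test, and a match is not a bound site.

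Matches that faced each other across the pair were found in 134 shared pairs (5.92%, 4.98% to 6.97%), in 3.62% (2.83% to 4.55%) of the MN loci without a partner and in 0.836% (0.677% to 1.02%) of the ESC loci without a partner. These intervals are binomial over pairs or loci, and those that share an anchor are not independent. Of the shared pairs whose bins each held matches of 1 strand alone, 123 pointed towards each other, 23 the same way and 2 away from each other. A match in 1 bin alone was found in 808 shared pairs, and in neither bin in 1294 (57.2%). By distance class, the share with facing matches lay between 5.49% at 256 to 496 kb and 6.91% at 504 to 2000 kb.

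**Figure D2:**
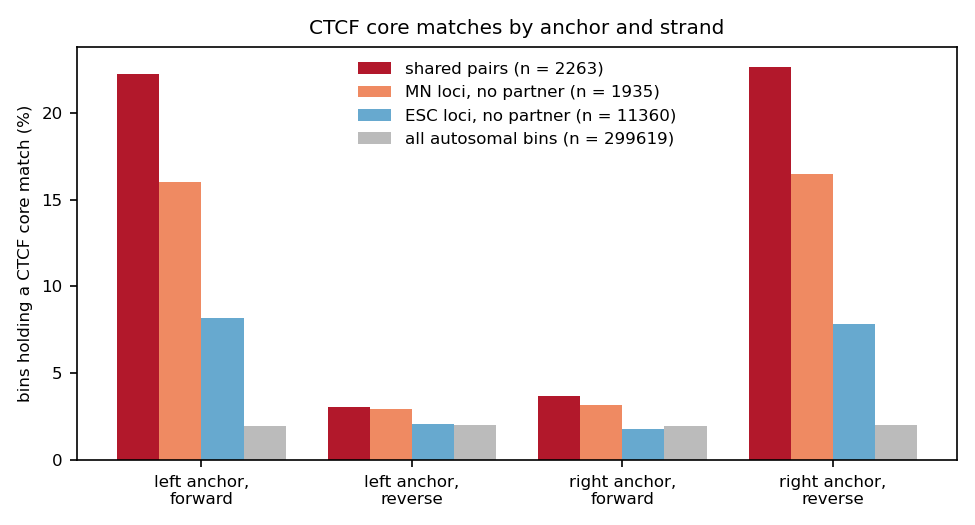
Share of bins (%) that held a CTCF core match, by anchor and strand, for the 2263 shared pairs, the 1935 MN and 11360 ESC loci without a partner and all 299619 autosomal bins. Matches that pointed into the loop (left forward, right reverse) were found in 22.2% and 22.7% of the shared anchors and in 1.95% and 2.02% of all bins, while outward matches stayed at 3.05% and 3.67%.

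Pairs with CTCF matches in both anchors had higher medians over their rings in each library than those with no match, whether or not the matches faced each other. For facing matches the median over the ring was 3.87 and 3.62 for WT and PATZ1 KO ESCs, and 3.86 and 4.19 for WT and PATZ1 KO MNs. The 27 pairs with matches in both anchors that did not face each other stood at 3.83, 3.48, 3.90 and 4.17, pairs with a match in 1 anchor at 3.29, 3.30, 3.52 and 3.85, and pairs with no match at 3.06, 3.05, 3.40 and 3.68. When the shared pairs were ranked by the product of their ESC and MN enrichment and cut into 4 equal groups, from which those at least 10 times their ring in both cell states were then left out, facing matches made up 2.83%, 5.12%, 7.26% and 9.43% of the groups from the weakest to the strongest. The groups then held 566, 566, 565 and 509 pairs. Those left out thus came from the strongest group and had no facing matches, so leaving them out raised its share. The ranking used the enrichment on which the pairs had been selected.

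The G-rich word GGGGAGGGG, of the kind PATZ1 and related zinc finger proteins bind, was searched on both strands and lay in 46.4% of the shared anchors, against 45.4% of the anchors of MN loci without a partner, 36.2% of those of ESC loci without a partner and 35.5% of all bins. Shared anchors and those of the MN loci thus held it about equally often. It was in both anchors of 506 shared pairs and in 1 anchor of 1086. The median GC content was 44.7% in shared anchors, 44.2% in those of MN loci and 41.2% in those of ESC loci without a partner, and 41.4% over all bins, and its part in the share of G-rich words was not tested. A protein-coding gene start lay in 9.35% of shared anchors, in 9.69% and 6.41% of the anchors of MN and ESC loci without a partner and in 6.28% of all bins. A gene start lay in both anchors of 30 shared pairs, in 1 anchor of 363 and in none of 1870.

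Chromosomes 6 and 8 held more of the shared pairs than their length, with 287 and 217 pairs, or 22.3% of all shared pairs on 11.4% of the bins. This is 15.8 and 13.98 shared pairs per 1000 bins, against 4.62 to 8.40 on the other 17 autosomes. Contacts per bin at these distances were 1.73 to 1.81 times the autosomal median on chromosome 6 in the 4 libraries and 1.65 to 1.71 times on chromosome 8, against 0.757 to 1.11 elsewhere. The count minimum was the same on every chromosome. Across the 19 autosomes the density of shared pairs went with the contacts per bin (Pearson r = 0.88, a description over chromosomes of the same libraries), and without chromosomes 6 and 8 it did not (r = -0.046).

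**Figure D3:**
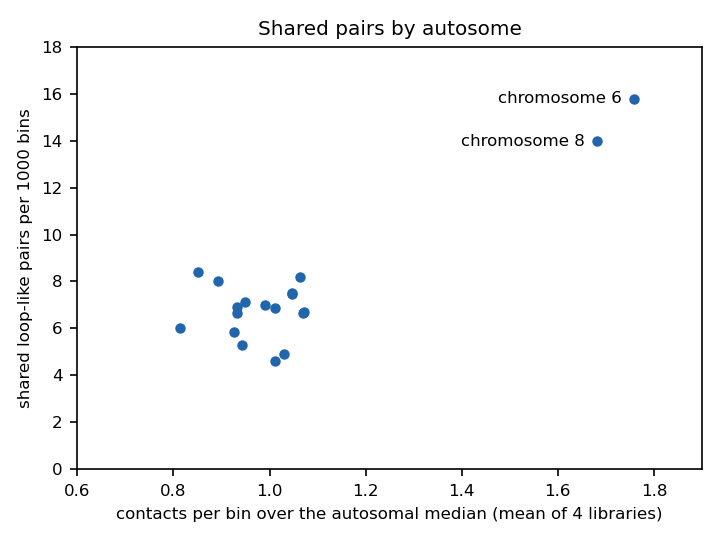
Shared loop-like pairs per 1000 bins (vertical axis) against contacts per bin over the autosomal median (horizontal axis, mean of the 4 libraries), with a point for each of 19 autosomes. Chromosomes 6 and 8 stand apart at 15.8 and 13.98 pairs per 1000 bins, and the others lie between 4.62 and 8.40.

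The shared pairs that stood highest over their rings were then placed by region. An N of at least 10 times the ring in both cell states was found for 57 shared pairs (2.52%). Their rings held few contacts, with a median of 30 of the 96 ring pairs listed in ESCs and 25 in MNs, against 91 and 87 for the other shared pairs. None of the 57 had facing CTCF matches. Shared sequence was counted next: at least 5% of the 25-base words of the left bin were also present in the right bin, on either strand, for 18 of the 57 and for 4 of the other 2206. The part that shared sequence had in placing reads of these bins was not tested. The 57 pairs fell into 32 regions when neighbours within 5 Mb were joined, and 6 regions held more than 1.

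A cluster of zinc finger genes at chr4:145432001-147528000, with Zfp600, Rex2 and Zfp980 among its 16 protein-coding genes, held 11 of the 57 pairs, which had 411 (WT) and 339 (PATZ1 KO) contacts in ESCs and 201 and 265 in MNs. The variable part of the immunoglobulin heavy chain locus at chr12:114608001-116016000, with 57 annotated V genes, held 8 pairs, with 249 and 201 contacts in ESCs and 122 and 165 in MNs. Both regions thus had fewer contacts in PATZ1 KO than in WT ESCs and more in PATZ1 KO than in WT MNs. The totals of the whole libraries differed in the same directions but by smaller proportions. They were 170946673 (WT) and 160496081 (PATZ1 KO) in ESCs and 110991835 and 118032533 in MNs. Natural killer cell receptor genes of the Klra family and bitter taste receptor genes of the Tas2r family lie in a region of chromosome 6 from 129864001 to 133528000 that held 6. The interferon-inducible Ifi200 family on chromosome 1 (173272001 to 174336000) and the Skint genes on chromosome 4 (112896001 to 114000000) held 2 each. So did a region of chromosome 8 (71144001 to 71848000) with 28 protein-coding genes, Jak3, Myo9b and Unc13a among them. The other regions held 1 pair each. Some of these lay over the Cyp2b, Cyp3a, Mrgpra or Vmn2r genes, others over 1 gene such as Ptprd, Itga4 or Maml2, and others over no protein-coding gene. No list of repeated gene families was fixed, so the share of pairs at such families was not counted.

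Shared sequence is shown for the strongest pairs of chromosomes 4 and 1 because it says where in these anchors a read could have more than 1 place. On chromosome 4 the longest exact run common to both bins was 193 bases, at 145452494 to 145452686 and again at 146051729 to 146051921 on the same strand. On chromosome 1 it was 501 bases, at 85273296 to 85273796 and, on the opposite strand, at 85597410 to 85597910. The first stretch of 60 bases in each run with no base masked as a repeat is given from the plus strand of the left bin, in lower case throughout as no part of them stands out.
chr4:145452577-145452636: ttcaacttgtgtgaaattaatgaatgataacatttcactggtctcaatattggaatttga
chr1:85273549-85273608: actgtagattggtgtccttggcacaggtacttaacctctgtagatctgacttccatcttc

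By the total of both cell states among pairs at least 4 times their ring in both (480 pairs), 10 shared pairs stood highest. The first joined chr4:145448001-145456000 with chr4:146048001-146056000, 600 kb apart, with 125 (WT) and 110 (PATZ1 KO) contacts in ESCs and with 47 and 80 in MNs. The second joined chr1:85272001-85280000 with chr1:85592001-85600000 at the start of Sp110, a gene of the Sp100 family of nuclear body proteins, with 92 and 106 contacts in ESCs and 81 and 54 in MNs. Of the 25-base words of the left bin, 23.3% and 52.1% were also found in the right bin. These are the pairs of the shared runs above, and their counts were 133 to 324 times the ring in the 4 libraries.

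The log2 change from WT to PATZ1 KO, each over its ring, was 0.14 in ESCs (-0.25 to 0.52) and 0.073 in MNs (-0.46 to 0.63) for the first pair. For the Sp110 pair it was 0.20 (-0.21 to 0.62) and -0.81 (-1.33 to -0.29). In MNs the interval of the Sp110 pair lay below 0, but it takes the rings as fixed. These MN rings held only 0.25 (WT) and 0.29 (PATZ1 KO) contacts per pair, with 12 of the 96 ring pairs listed. Counting error of the rings would widen the interval, and no decrease is read from it. The third pair, on chromosome 18 from 85776001 to 85912000 with no protein-coding gene, had 122 and 76 contacts in ESCs and 45 and 60 in MNs. Its changes were -0.49 (-0.92 to -0.064) and 0.13 (-0.45 to 0.72).

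The next of the 10 joined a bin within Chia1, a gene of the chitinase family, with a bin 184 kb away (chr3:106120001-106128000 and chr3:106304001-106312000), and had 93 and 82 contacts in ESCs and 27 and 55 in MNs. Its change was -0.12 in ESCs (-0.56 to 0.33) and 0.76 in MNs (0.068 to 1.48). A pair over Ccdc174 and Fgd5 (chr6:91896001-91904000 and chr6:92064001-92072000) had 61 and 49 contacts in ESCs and 45 and 46 in MNs. It is the only pair of the 10 with facing CTCF matches. The pair of Ddc with Grb10 (chr11:11816001-11824000 and chr11:11968001-11976000) links neighbours of an imprinted cluster: Ddc encodes the dopa decarboxylase of monoamine synthesis and Grb10 a growth-restraining adaptor. It had 55 and 62 contacts in ESCs and 32 in each MN library, with changes of 0.50 (-0.043 to 1.05) and 0.22 (-0.54 to 0.97).

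The remaining 4 of the 10 lie in the heavy chain locus on chromosome 12, in the chromosome 4 zinc finger region and in stretches of chromosomes 9 and 6 with no protein-coding gene at either anchor. The pair on chromosome 9 (bins 46872001 and 47152001) had 54 and 57 contacts in ESCs and 30 and 41 in MNs. Of the 10 pairs, 4 were lower and 6 higher in PATZ1 KO ESCs, and 2 were lower and 8 higher in PATZ1 KO MNs. The interval lay away from 0 for 1 of them in ESCs and for 2 in MNs, beside 3.51% and 4.07% of all pairs with N of at least 20. With 10 pairs, chosen for their counts, nothing is read from these numbers.

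Below these, the strongest pairs under 10 times the ring included 2 developmental genes, named after their values were seen. The bin at the start of Wnt7a, which encodes a secreted Wnt ligand, contacted a bin 128 kb away (chr6:91280001-91288000 and chr6:91408001-91416000) with 45 (WT) and 35 (PATZ1 KO) contacts in ESCs, and with 45 and 35 in MNs. A bin within Mitf, the transcription factor of pigment cells, contacted one 240 kb away (chr6:97760001-97768000 and chr6:98000001-98008000) with 61 and 39 contacts in ESCs and 19 and 35 in MNs. At Mitf the change was -0.63 in ESCs (-1.25 to -0.026) and 0.95 in MNs (0.10 to 1.84), and at Wnt7a -0.17 (-0.85 to 0.50) and 0.097 (-0.58 to 0.77).

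The shared pairs used 4124 distinct anchor bins, of which 3768 took part in 1 pair and 40 in 3 or more. The bin with most pairs, 6, lay in the heavy chain locus (chr12:115600001-115608000), and a bin over Klra17 on chromosome 6 (129864001 to 129872000) had 5. The bin that holds the start of Hoxa13 (chr6:52256001-52264000) came next, with 4 pairs that all ran to the right, away from the rest of the cluster. Of the 37 bins with 3 pairs, those at 146048001 and 145432001 on chromosome 4 had the most contacts. The 4 pairs of the Hoxa13 bin together had 50 (WT) and 61 (PATZ1 KO) contacts in ESCs and 51 and 54 in MNs, with changes of 0.40 (-0.16 to 0.97) and 0.15 (-0.43 to 0.73).

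Hox genes encode the transcription factors that set position along the body axis and, in MNs, the subtype. An anchor within a Hox cluster was found for 13 shared pairs, of which 7 were at HoxA and 2 each at HoxB, HoxC and HoxD. HoxA lies on chromosome 6, which held 15.8 shared pairs per 1000 bins. The chromosomes of HoxB, HoxC and HoxD (11, 15 and 2) held 8.04, 6.92 and 8.19. The part of this in the counts per cluster was not tested. Together they had 219 (WT) and 207 (PATZ1 KO) contacts in ESCs, and 190 and 199 in MNs. Pooled over the ring, they changed by 0.16 in ESCs (-0.12 to 0.44) and by 0.20 in MNs (-0.093 to 0.50). In ESCs 6 of the 13 were lower and 7 higher in PATZ1 KO, and in MNs 5 were lower and 8 higher.

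On the HoxA side that faces Skap2, the bin of Hoxa7 contacted one 624 kb away (chr6:51592001-51600000 and chr6:52216001-52224000) with 21 (WT) and 7 (PATZ1 KO) contacts in ESCs and with 11 and 15 in MNs. Its change was -1.32 in ESCs (-2.80 to -0.031) and 0.51 in MNs (-0.71 to 1.78). The bin of Hoxa3 contacted one within Skap2 320 kb away (bins 51872001 and 52192001) with 7 and 16 contacts in ESCs and 11 and 21 in MNs, with changes of 1.53 (0.16 to 3.05) and 0.95 (-0.17 to 2.15). These were the 2 Hox pairs whose ESC interval lay away from 0, in opposite directions, and each rests on fewer than 30 contacts. Of all ESC pairs with N of at least 20, 3.51% had such an interval, and nothing is read from 2 of 13. A second Hoxa3 pair to Skap2 (bins 51992001 and 52192001) had 16 and 11 contacts in ESCs and 21 and 19 in MNs.

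The Hoxa13 bin contacted 2 bins within Hibadh, at 52576001 and 52600001, and 2 within Jazf1, at 52832001 and 52912001. Their counts in WT and PATZ1 KO ESCs and then in WT and PATZ1 KO MNs were 12, 21, 9 and 13 at the first bin of Hibadh. They were 13, 14, 15 and 10 at the second, 14, 10, 16 and 16 at the first bin of Jazf1 and 11, 16, 11 and 15 at the second. All 8 intervals of these 4 pairs held 0.

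Of the HoxB, HoxC and HoxD pairs, the one with the most contacts, from a bin with the start of Hoxc8 to one 192 kb away (chr15:102984001-102992000 and chr15:103176001-103184000), had 39 and 30 contacts in ESCs and 29 in each MN library. The Hoxc11 pair (bins 102760001 and 102952001) had 11 and 16 contacts in ESCs and 9 and 15 in MNs. A bin over Hoxd3 and Hoxd4 (chr2:74712001-74720000) contacted bins at 74960001 and 75144001, with 19 and 14 and with 19 and 28 contacts in ESCs, and with 14 and 10 and with 19 and 15 in MNs. The 2 HoxB pairs had 24 and 15 and 13 and 9 contacts in ESCs, and 12 and 11 and 13 and 10 in MNs. In each of these 6 pairs the interval held 0 in both cell states.

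Gene starts at shared anchors were then counted for lists of genes. Of 20780 protein-coding genes on the autosomes, 411 (1.98%) started in a shared anchor. None of 29 pluripotency genes and none of 19 genes of loop and insulation factors did. Of 39 genes of MNs and their progenitors, 6 (15.4%) did: Chat, Slc18a3, Aldh1a2, Sox1, Irx3 and Nkx2-2. Chat and Slc18a3, which make and load acetylcholine, share a locus and count as 1 pair. Of 39 Hox genes 4 did (Hoxa7, Hoxa13, Hoxc8 and Hoxc11), and of 20 genes of the retinoic acid response 2 did (Dhrs3 and Meis2).

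The bin of Chat and Slc18a3 (chr14:32464001-32472000) contacted one over Parg 240 kb away with 15 contacts in each ESC library and with 25 in WT and 20 in PATZ1 KO MNs. The pair of Sox1, a neural progenitor factor, had 22 and 25 contacts in ESCs and 17 and 14 in MNs. Nkx2-2, which marks the progenitors just ventral to those of MNs, had 14 and 21 and then 10 and 10. The start of Irx3 contacted Irx5, both homeobox genes of neural tube patterning, over 560 kb (chr8:91800001-91808000 and chr8:92360001-92368000), with 10 and 15 contacts in ESCs and 12 and 11 in MNs. Aldh1a2, which makes retinoic acid, had 15 and 10 and then 10 and 11. Pooled over these 5 pairs the change was 0.30 in ESCs (-0.16 to 0.76), with 1 lower and 4 higher, and -0.028 in MNs (-0.53 to 0.47), with 2 lower and 3 higher. The medians were 0.38 and 0.15, so that in MNs the median and the pooled change differed in sign, and both pooled intervals held 0.

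Meis2, a cofactor of Hox proteins, contacted a second bin of its own gene 208 kb away (chr2:115856001-115864000 and chr2:116064001-116072000) with 42 and 54 contacts in ESCs and with 8 and 15 in MNs. The Dhrs3 bin, at a gene for a retinal reductase, contacted 2 bins of Vps13d. The farther pair (bins 144888001 and 145112001) had 19 (WT) and 7 (PATZ1 KO) contacts in ESCs and 12 and 11 in MNs, with changes of -1.39 (-2.88 to -0.076) and 0.069 (-1.25 to 1.38). The nearer had 13 and 10 and then 14 and 7. Among the pairs with the start of a listed gene in an anchor, every interval held 0 in both cell states apart from those of the farther Dhrs3 pair and of the Hoxa7 pair in ESCs. The ESC N of these was only 26 and 28. Of all ESC pairs with N of at least 20, 3.51% had an interval away from 0, and no decrease is read from either pair.

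PATZ1 KO was then compared with WT over all shared pairs. In ESCs the pooled log2 ratio of PATZ1 KO over WT, each over its ring, was -0.016 (-0.037 to 0.0038), from 41435 WT and 37265 PATZ1 KO contacts. Whether this interval held 0 depended on the rule: it lay below 0 with a ring of 5 to 8 bins (-0.052 to -0.0088), with both cell states read at the same pair of bins (-0.049 to -0.0046) and at 3 times the ring or more (-0.054 to -0.0017). The change shrank to -0.0048 (-0.028 to 0.018) without chromosomes 6 and 8, whose own pairs had -0.046 (-0.087 to -0.0052), and to -0.0069 (-0.018 to 0.0037) without merging. In MNs it was 0.15 (0.13 to 0.17), from 32467 WT and 32251 PATZ1 KO contacts. Scaled to the library totals at the same distance, with no ring, the MN change was -0.00017 (-0.022 to 0.022) and 49.7% of the shared pairs were lower. Single pairs had a median change of -0.027 in ESCs and of 0.12 in MNs. In ESCs 52.2% of the shared pairs were lower in PATZ1 KO, against 50.2% of all pairs with N of at least 20. No interval is given for such shares, because pairs of the same libraries are not replicates. In MNs 42.6% were lower, against 46.6% of all such pairs. Over all such pairs the pooled change was -0.0068 in ESCs (-0.011 to -0.0029) and 0.071 in MNs (0.062 to 0.080).

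Changes of over 1.5-fold were then counted. In ESCs 15.3% were lower and 13.7% higher by over 1.5-fold, against a background of 17.7% and 17.1%. In MNs 12.5% were lower and 22.2% higher, against 15.8% and 19.6%. The background pairs had fewer contacts, with a median N of 22 in ESCs and in MNs, against 30 and 25 for the shared pairs. The part of this in the shares was not tested. The spread of the change over single shared pairs (SD) was 0.57 in ESCs and 0.62 in MNs, and the spread computed from the counts alone was 0.545 and 0.59. Such changes were found for smaller shares of the pairs with more contacts: with an N of at least 50, 8.03% were lower and 4.01% higher by over 1.5-fold in ESCs (274 pairs), and 5.75% were lower and 13.8% higher in MNs (87 pairs). Of all pairs with an N of at least 50, 7.28% were lower and 5.31% higher in ESCs (659 pairs), and 5.22% and 13.4% in MNs (134 pairs). These sets hold the shared pairs themselves, 274 of the 659 and 87 of the 134. Closeness to the shares of the shared pairs is thus partly built in.

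**Figure D4:**
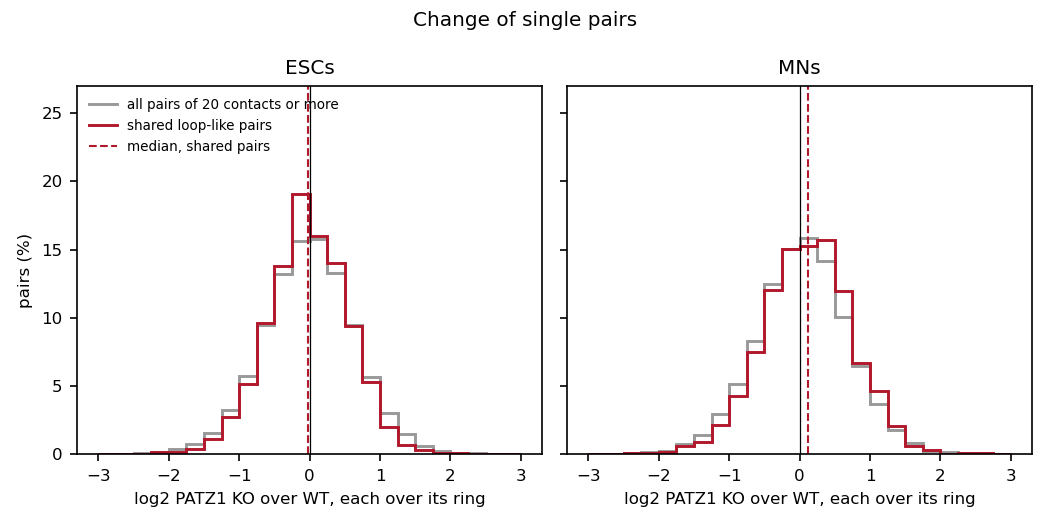
Share of pairs (%) by log2 ratio of PATZ1 KO over WT, each over its ring, in ESCs (left) and MNs (right), for the 2263 shared pairs and for all pairs with at least 20 contacts, the shared pairs included. The dashed line marks the median of the shared pairs, at -0.027 in ESCs and at 0.12 in MNs, and the curves of the shared pairs and of all pairs overlap over most of their width.

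The change over the ring has a centre and a ring part. The centre and the ring were each set against the library totals at the same distance. In MNs the centre then changed by -0.00017, as above, and the ring by -0.15. In ESCs the centre changed by -0.024 (-0.044 to -0.0035) and the ring by -0.0042. All pairs with N of at least 20 had a ring change of -0.15 in MNs as well, with a centre change of -0.073 (-0.083 to -0.064). Rings of neighbouring pairs share contacts, so no interval is given for them.

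The MN change was larger in the longer distance classes. Pooled over the ring, it was 0.11 (0.071 to 0.15) at 104 to 152 kb, 0.12 (0.084 to 0.16) at 160 to 248 kb, 0.15 (0.11 to 0.20) at 256 to 496 kb and 0.24 (0.16 to 0.31) at 504 to 2000 kb. All pairs with N of at least 20 went the same way, at 0.033, 0.041, 0.084 and 0.14. They include the shared pairs, and 11289 of these 15567 MN pairs were loop-like, so this is no independent comparison. The centre alone, against the library totals, went from -0.11 (-0.15 to -0.068) at the shortest distances to 0.21 (0.13 to 0.29) at the longest, and the ring from -0.22 to -0.027. In ESCs the change was 0.00033, -0.023, -0.030 and -0.076 in the same order, and the interval held 0 in the first 3.

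**Figure D5:**
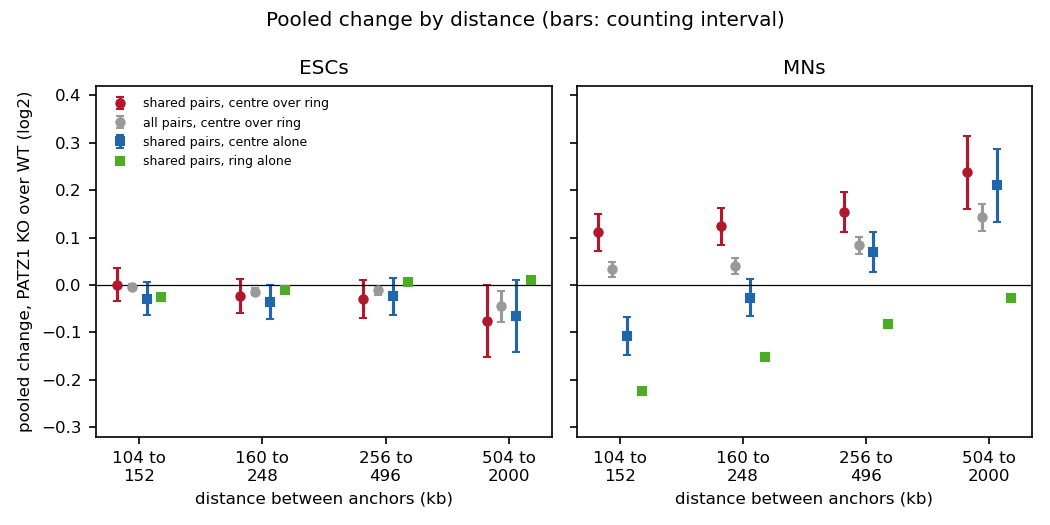
Pooled log2 change of PATZ1 KO over WT (vertical axis) by distance between anchors (kb, horizontal axis) in ESCs and MNs: centre over ring for the shared pairs and for all pairs with N of at least 20, and for the shared pairs the centre and the ring alone against the library totals at the same distance. Bars are 95% counting intervals (none for the ring). In MNs the change of the shared pairs over the ring goes from 0.11 to 0.24, the centre from -0.11 to 0.21 and the ring from -0.22 to -0.027.

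By class of anchor, pairs with facing CTCF matches had a pooled change of -0.056 (-0.13 to 0.021) in ESCs and of 0.15 (0.063 to 0.24) in MNs, and pairs with no match -0.033 (-0.060 to -0.0054) and 0.15 (0.12 to 0.18). The 808 pairs with a match in 1 anchor had 0.022 (-0.011 to 0.056) and 0.13 (0.098 to 0.17). Pairs with the G-rich word in both anchors had -0.028 (-0.071 to 0.016) and 0.14 (0.094 to 0.19), and those with it in neither -0.0057 (-0.042 to 0.031) and 0.17 (0.13 to 0.21). With a gene start in 1 anchor the change was -0.020 (-0.071 to 0.031) and 0.15 (0.097 to 0.21), and with none -0.017 (-0.039 to 0.0055) and 0.15 (0.12 to 0.17). The 30 pairs with a gene start in both anchors had 0.070 (-0.10 to 0.24) and 0.17 (-0.031 to 0.37). The differences between these classes were not tested. The 27 pairs with matches in both anchors that did not face each other had -0.22 (-0.40 to -0.029) and 0.26 (0.055 to 0.46).

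By autosome, the MN change was above 0 on all 19, from 0.0020 on chromosome 13 to 0.31 on chromosome 18, while the ESC change was below 0 on 12 and above 0 on 7, from -0.076 on chromosome 16 to 0.072 on chromosome 14. Autosomes of the same libraries are not replicates. Loci without a partner had changes of -0.020 (-0.031 to -0.0090) in ESCs and 0.097 (0.070 to 0.12) in MNs.

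The changes of the shared pairs in ESCs and in MNs were set side by side. Across the 2263 pairs the ESC and MN changes had a Pearson r of 0.012, given as a description with no test over pairs of the same libraries. In both cell states 43 pairs were lower by over 1.5-fold, which is 12.4% of those lower in ESCs and 15.2% of those lower in MNs, against 12.5% of all shared pairs lower in MNs and 15.3% lower in ESCs. A change of over 1.5-fold to higher in both was found for 70 pairs, 22.6% of the ESC and 13.9% of the MN ones, against 22.2% of all shared pairs higher in MNs and 13.7% higher in ESCs. Pairs that changed in 1 cell state were about as often changed in the other as all shared pairs were. The spread of the single changes was close to that from counts alone, at 0.57 against 0.545 in ESCs and 0.62 against 0.59 in MNs. With so little spread beyond counting, neither the r nor these shares could show whether changes recur, and nothing is read from them. A further 123 pairs changed by over 1.5-fold in opposite directions. With an N of at least 100 in both cell states there were 3 pairs. None of these changed by over 1.5-fold in ESCs, so none could have done so in both cell states. Among the 63 pairs with an N of at least 50 in both, a limit set after the values were seen, 4 were lower and 3 higher by over 1.5-fold in ESCs. In MNs 4 of them were lower and 8 higher. None changed in the same direction in both, and with so few changed pairs nothing is read from this. The log2 N of ESCs and MNs had an r of 0.56 over the same pairs.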

How the data were processed

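Micro-C libraries of WT and PATZ1 KO ESCs and MNs were made with a Dovetail kit, 1 per group, and groups were taken from the sample labels. The deposited lists hold, for each cell state, whole-number contact counts per pair of 8 kb bins, which the authors had made by a company pipeline, and an adjusted signal that the authors obtained with HiCcompare by joint normalization of WT and PATZ1 KO. The submitters' processing notes name mm10, and the aligner is not given in the sources used here. A pair is listed only with a contact in both libraries, which removes pairs seen in 1 alone, and unlisted pairs were set to 0. The lists also hold the authors' log ratios, scores and p-values, which were not used. The shared pairs, gene lists and rules were chosen with earlier results of these data known.

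Counts were read with Python 3.11.15 (numpy 2.4.6, pandas 2.3.3, scipy 1.17.1), without scaling. The pooled change is the log2 ratio of summed PATZ1 KO over WT contacts, each divided by its summed rings. Background shares count every listed autosomal pair with N of at least 20, the shared pairs included. Sequence was read from GRCm38 (no site of chromosome 18 is printed) and gene starts from GENCODE. The named pairs were the 10 with the highest N among those at least 4 times the ring in both cell states, up to 5 per direction past 1.5-fold in both with N of at least 100, the 5 busiest bins, and pairs at listed genes, Hox clusters or Patz1, with at most 6 per list. The steps were tested on simulated data. The tolerance there was wider than the pooled changes of all shared pairs, so changes of that size were not tested. Alternatives were other rings, thresholds, matches, distances, scalings and ways of choosing pairs. Precision is limited by counts of 13 to 16 contacts in a median pair of a library.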

Additional observations from a re-analysis of the deposited data

Results flagged for a closer look

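The pooled change of the shared pairs differed in sign between the cell states, with -0.0164 for ESCs (-0.037 to 0.0038) and 0.1475 for MNs (0.13 to 0.17). Each rests on 1 library per genotype, the ESC interval holds 0 (but lies below 0 under some of the other rules tried), and the difference between the cell states was not tested. Scaled to library totals at the same distance with no ring, the changes were -0.024 (-0.044 to -0.0035) and -0.00017 (-0.022 to 0.022), so the signs did not differ under that scaling.

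Chromosome X was outside the comparison and also held shared pairs. The same rule gave 477 loop-like pairs in ESCs and 120 in MNs, which merged into 35 shared pairs. These had 452 (WT) and 718 (PATZ1 KO) contacts in ESCs, and 301 and 603 in MNs. ESCs had a change over the ring of -0.013 (-0.185 to 0.16) and MNs one of 0.19 (-0.016 to 0.39). Contacts per bin on chromosome X, over the autosomal median of the same library, were 0.466 (WT) and 0.615 (PATZ1 KO) in ESCs and 0.370 and 0.470 in MNs.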

How the results depend on the processing

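The number of shared pairs moved with the rule: it was 177 with N of at least 40, 1222 at 3 times the ring or more, 188 at 63 to 250 bins, 9143 without merging, and 5326 or 4672 when pairs were chosen on the WT or PATZ1 KO libraries alone. The choice on WT or PATZ1 KO alone also used a count minimum of 10 in that library, in place of 20 for the sum, so these counts differ from the main one by more than the choosing library. Choosing on WT alone makes WT high and choosing on PATZ1 KO alone makes PATZ1 KO high by construction: the ESC change was then -0.57 or 0.56 and the MN change -0.60 or 0.73, with 89.1% or 11.3% of pairs lower in PATZ1 KO ESCs and 86.9% or 8.20% in PATZ1 KO MNs. At 63 to 250 bins the change was -0.076 in ESCs and 0.24 in MNs, with 36.7% lower in MNs. In MNs the change was 0.22 with N of at least 40 (34.5% lower), 0.18 at 3 times the ring or more (39.0% lower) and 0.18 against a square of 6 to 10 bins towards the diagonal, which was set only for the 1430 pairs with anchors farther apart, so that both the reference and the set of pairs differed. Scaled to library totals at the same distance with no ring, the MN change was -0.00017, with 49.7% lower, since the ring that was lower in PATZ1 KO was not used. The cause of the other differences was not tested. The other settings left the count within 1.5 times in 8 of 14 alternatives, and gave ESC changes of -0.033 to -0.0048 in 14 of 17, so the direction was kept but not the size, and MN changes of 0.13 to 0.148 in 11 of 18. The ESC interval lay below 0 with a ring of 5 to 8 bins (-0.030), at the same pair of bins (-0.027), at 3 times the ring or more (-0.028), with no ring (-0.024) and at 63 to 250 bins, besides the choice on WT alone. The alternatives without chromosomes 6 and 8, which gave -0.0048 in ESCs and 0.147 in MNs, and without pairs at least 10 times their ring, which gave -0.012 and 0.14, were chosen after seeing the data. No paired analysis was possible because each group has 1 library and the labels give no replicate numbers, and for the same reason no library could be left out. Depth limits single pairs: the median pair had 13 to 16 contacts in a library, and pairs under 20 in a cell state could not be shared.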
